A study of Kluyveromyces marxianus and Kluyveromyces lactis with 30 samples.

Results

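Ethanol-grown cultures of the yeast Kluyveromyces lactis were compared with control cultures grown without added stress. The ethanol group held 3 libraries and the control group held 3, out of 30 libraries in the series. All 6 came from strain yLB72, per the labels, with 3 biological replicates in each condition. The ethanol cultures grew with ethanol at a dose and temperature that the labels do not give, and the controls grew at 28C. Cultures of both groups started from overnight growth in rich glucose medium (YPD), were diluted, and were collected while growing. Total RNA was enriched by poly(A) capture before sequencing. The other K. lactis groups, also of 3 libraries each, were heat at 39C, methyl methanesulfonate (MMS, a DNA alkylating agent) and caffeine, both without a stated dose. They entered the fit and serve here only to place ethanol.

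Kluyveromyces lactis is a budding yeast related to baker's yeast, Saccharomyces cerevisiae, and is known for growth on the milk sugar lactose. Yeasts make ethanol by fermentation and can also be harmed by it. Ethanol disorders membranes, makes them leak protons and disturbs proteins, and in baker's yeast stress of this kind goes with lower expression of genes for ribosomes.

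The condition and the counting method changed together. The ethanol counts were made with featureCounts 1.6.3 on exon features, per the file headers, while the control, heat, MMS and caffeine counts have the layout of HTSeq, another counting program. A difference between ethanol and control can therefore come from the ethanol, from the counting or from any step that went with it, and these cannot be told apart. Genes whose exon features overlap those of another gene were left out, because the programs can treat their reads differently. This removed 163 of 5320 genes and left 5157. The removed genes held 1.01% to 1.12% of gene counts in ethanol and 1.12% to 1.18% in controls. In the remaining genes the ethanol libraries held 38.6, 93.5 and 45.1 counts in units of 1e6, against 49.3, 48.2 and 25.3 in the controls. Genes that the ethanol files leave empty were looked for, and 0 genes had at most 3 counts in each ethanol library with at least 10 counts per 1e6 counts (CPM) in each control. The reverse pattern was also found in 0 genes.

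The ethanol libraries stood apart from the controls and also varied more among themselves. On the first principal component of the 15 K. lactis libraries, which held 35.6% of the variance, ethanol libraries lay at -36.74, -41.51 and -35.89, against -18.61, -12.85 and -6.92 for the controls. Heat lay at the opposite end, at 42.29 to 42.88. On the second component, with 25% of the variance, the ethanol libraries lay at -6.15, -25.09 and -20, below all controls, which lay at 21.58 to 25.54. The biological coefficient of variation within a group was 0.199 in ethanol and 0.107 in controls. It was 0.0626 in heat, 0.205 in MMS and 0.0629 in caffeine. Ethanol replicate 1 lay nearest the controls. Its root mean square log2 distance to the control libraries was 0.722 to 0.772, while replicate 2 lay 0.901 to 0.975 and replicate 3 lay 0.799 to 0.855 from them. Distances were 0.287 to 0.533 within ethanol and 0.182 to 0.29 within controls, so every ethanol library was farther from each control than from any other ethanol library. Ethanol lay 1.1 to 1.24 from heat, 0.952 to 1.04 from caffeine and 0.832 to 0.99 from MMS.

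**Figure D1:**
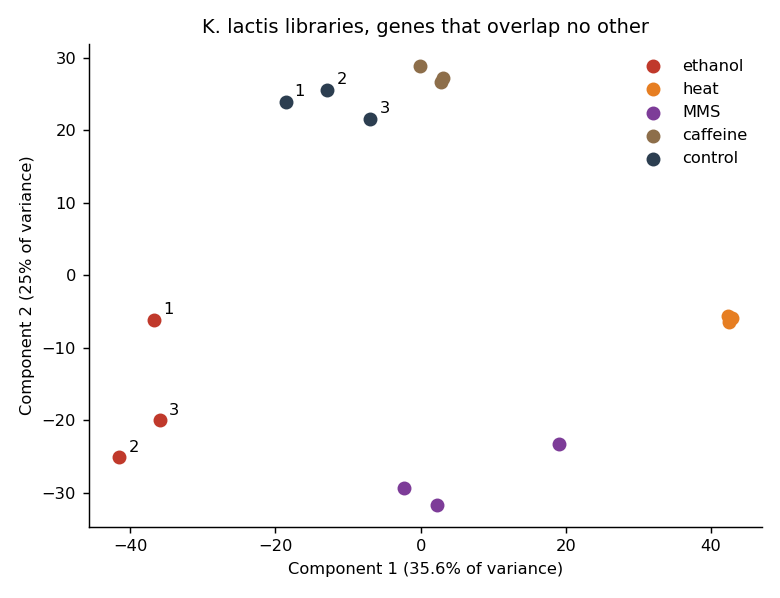
The first component (35.6% of variance, horizontal) is plotted against the second (25%, vertical) for the 15 K. lactis libraries, 1 point per library, with replicate numbers beside ethanol and control. The 3 ethanol points lie left of all the others, and ethanol replicate 1 is the one nearest the controls on the vertical axis.

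The comparison asked which transcripts differed between ethanol-grown and control cultures. Of 4983 genes with enough counts to test, 1663 (33.4%) were higher in ethanol and 1605 (32.2%) were lower, by edgeR's quasi-likelihood test with Benjamini-Hochberg adjustment at an adjusted p under 0.05. Another 1715 genes (34.4%) were not called in either direction. Of the 3268 genes called, 910 differed at least 2-fold. The median size of the log2 change over all tested genes was 0.45, and its median standard error was 0.12. At least 2-fold, 384 genes (7.71%) were higher and 526 (10.6%) were lower. At least 4-fold, 71 were higher and 75 lower, and at least 8-fold, 26 were higher and 23 lower. The 3 ethanol libraries lay entirely above the 3 controls in 1676 genes and entirely below them in 1629, together 66.3% of the genes tested. The near balance of higher and lower genes is set in part by the scaling: higher genes made up 50.9% of the calls here and 48.1% with another scaling method (relative log expression, RLE).

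Ethanol replicate 1 showed most of these differences in a weaker form. Among the genes at least 2-fold higher, it was the ethanol library nearest the control mean in 250 (65.1%), with 47 for replicate 2 and 87 for replicate 3. Among the genes at least 2-fold lower, it was nearest in 318 (60.5%), with 67 for replicate 2 and 141 for replicate 3.

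**Figure D2:**
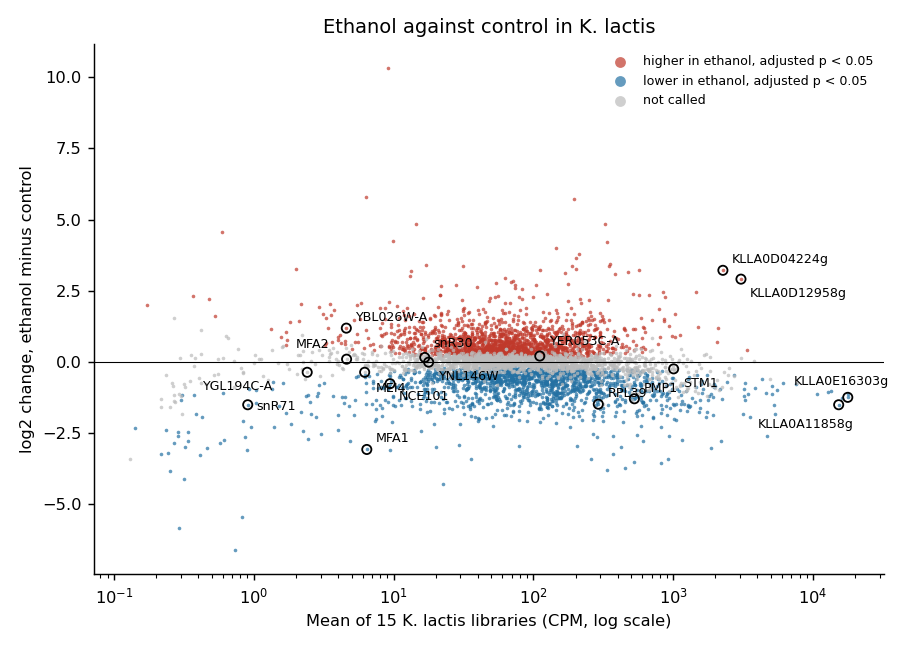
Each point is 1 of the 4983 tested genes, with its mean level in 15 libraries (CPM, log scale, horizontal) and its log2 change, ethanol minus control (vertical). Colours mark genes higher (1663) or lower (1605) at an adjusted p under 0.05, circles mark the genes named in the text, and the topmost point is an ID ending in r, a type of ID that is not described by gene here.

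The files do not pair K. lactis gene IDs with names, and the gene table available here covers another species. A function can be given only for the 13 tested IDs that carry the name of a gene, most of them small genes, with roles known from baker's yeast. Of these 13, 1 (7.69%) was higher and 5 (38.5%) were lower in ethanol, against 33.4% higher and 32.2% lower over all genes tested, so the share of lower genes was near that of all genes. The median log2 change was -0.36, against a median near 0 over all genes tested. Levels below are CPM after TMM scaling.

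Of the mating pheromone genes, MFA1 was lower in ethanol and MFA2 was not called, and the difference between the 2 changes was not tested. In baker's yeast MFA1 and MFA2 both encode precursors of a-factor, the lipid-modified peptide by which cells of mating type a signal to cells of the opposite type. MFA1 (chromosome 5, 1149528 to 1149629, 102 bases) had 0.665, 0.674 and 0.342 CPM in ethanol, against 4.92, 5.43 and 4.06 CPM in controls. These rest on 24, 74 and 16 counts in ethanol and on 180, 193 and 78 counts in controls, and the groups were far from overlapping. MFA1 fell by 3.07 ± 0.26 on the log2 scale (SE; adjusted p = 3.86e-07), which is 8.38-fold lower in ethanol. All 3 ethanol libraries lay below all 12 libraries of the other conditions. Against the other stresses directly, MFA1 was lower in ethanol by a log2 change of -2.88 from heat (adjusted p = 2.65e-07), -2.67 from MMS (1.29e-06) and -5.02 from caffeine (1.6e-09). Caffeine libraries had the highest MFA1 level, with a mean of 18.7 ± 2.08 CPM (SD, n = 3).

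MFA2 (chromosome 3, 1339261 to 1339359, 99 bases) had 3.63, 4.36 and 3.93 CPM in ethanol, against 3.55, 4.27 and 3.28 CPM in controls. The groups overlapped, and the log2 change was 0.10 ± 0.21 (adjusted p = 0.688). MFA2 is about as short as MFA1 and had a similar control level.

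PMP1 (chromosome 1, 990001 to 990120) encodes in baker's yeast a small membrane protein that regulates the plasma membrane proton pump. It had 411, 225 and 302 CPM in ethanol, against 791, 718 and 782 CPM in controls. Every ethanol library was below every control. The log2 change was -1.29 ± 0.24 (adjusted p = 0.000346). Set directly against the other stresses, PMP1 was lower in ethanol than in heat (log2 change -0.87, adjusted p = 0.0041) and caffeine (-1.04, 0.00136). Against MMS the difference of -0.14 was not called (adjusted p = 0.615).

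RPL39 (chromosome 2, 662543 to 662793), a gene for a small protein of the large ribosomal subunit, had 219, 41.5 and 120 CPM in ethanol, against 332, 431 and 296 CPM in controls. The groups did not overlap, but the ethanol libraries differed widely among themselves, with replicate 2 the lowest. The log2 change of -1.48 ± 0.61 passed narrowly (adjusted p = 0.0443). The call was lost without ethanol replicate 2 or 3 or any of the 3 controls, with log2 changes of -1.10 to -1.60 and adjusted p of 0.0544 to 0.126. Without ethanol replicate 1 the log2 change was -2.13 and was still called (adjusted p = 0.0113). In all, the call held in 9 of 14 alternative analyses. Among these were the replicate number as a block (-1.71, 0.0192) and the MMS libraries left out (-1.52, 0.00822), added after the data were seen. The MMS libraries, at 50.9, 42.5 and 234 CPM, also differed widely.

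STM1 (chromosome 4, 1467581 to 1468724), for a ribosome-binding protein that preserves idle ribosomes in starved baker's yeast, had 1095, 528 and 931 CPM in ethanol, against 979, 971 and 1070 CPM in controls. Ethanol replicate 1 was above every control and replicate 2 far below, so the groups overlapped (log2 change -0.24 ± 0.24, adjusted p = 0.384). STM1 was higher in heat, at 1719 ± 68.7 CPM (SD, n = 3), and ethanol was lower than heat by a log2 change of -1.01 (adjusted p = 0.00158).

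NCE101 (chromosome 3, 294545 to 294814), named in baker's yeast for a role in the export of proteins that lack a classical signal, had 6.4, 7.4 and 5.42 CPM in ethanol, against 11.2, 11.7 and 9.72 CPM in controls. The groups did not overlap. The log2 change was -0.76 ± 0.18 (adjusted p = 0.00232), and the ethanol level was also lower than in heat (-0.60, adjusted p = 0.00837) and caffeine (-1.01, 0.000203). The difference from MMS was not called (-0.16, adjusted p = 0.467), and MMS was itself lower than control (-0.60, adjusted p = 0.0104).

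Small nucleolar RNAs guide the processing and modification of ribosomal RNA, and in their mature form they are not polyadenylated. snR30 (chromosome 6, 1621811 to 1622323), which in baker's yeast is needed for making the RNA of the small ribosomal subunit, had 27.5, 20.6 and 19.5 CPM in ethanol, against 22.2, 19.2 and 18.8 CPM in controls. The groups overlapped (log2 change 0.16 ± 0.17, adjusted p = 0.418). Caffeine libraries had 5.56 ± 1.09 CPM (SD, n = 3), and ethanol was higher than caffeine by a log2 change of 2.01 (adjusted p = 3.56e-07) and than MMS by 0.77 (0.00136). snR71 (chromosome 3, 242472 to 242550), which guides a methylation on the large subunit RNA in baker's yeast, had 18, 37 and 7 counts in ethanol, against 26, 38 and 19 counts in controls. Scaled, this was 0.498, 0.337 and 0.149 CPM in ethanol, against 0.71, 1.07 and 0.988 CPM in controls. The groups did not overlap and the log2 change was -1.50 ± 0.38 (adjusted p = 0.00317), on low counts.

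Among the named small genes without a described role here, YBL026W-A was the only one called higher in ethanol. It lies on chromosome 5 (1099583 to 1099819) and had 8.58, 8.63 and 6.83 CPM in ethanol, against 3.99, 3.65 and 2.76 CPM in controls. The log2 change was 1.19 ± 0.20 (adjusted p = 0.000171), and all 3 ethanol libraries lay above all 12 other libraries. Caffeine was at the other extreme with 0.729 ± 0.0174 CPM (SD, n = 3), and ethanol was higher than caffeine by 3.46 on the log2 scale (adjusted p = 3.27e-08).

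In YER053C-A and YNL146W ethanol differed from each of the other stresses, but not by a called amount from control. YER053C-A (chromosome 6, 2553291 to 2553404) had 34.1, 55.7 and 56.4 CPM in ethanol, against 30.4, 37.1 and 59.6 CPM in controls, with overlapping groups (log2 change 0.21 ± 0.25, adjusted p = 0.463). Its means were 190 CPM in heat, 132 CPM in MMS and 143 CPM in caffeine. Ethanol was lower than each of them, by log2 changes of -1.96 (heat, adjusted p = 8.27e-06), -1.43 (MMS, 0.000207) and -1.55 (caffeine, 8.53e-05). YNL146W (chromosome 5, 2043882 to 2044172) had 22.6, 20.3 and 25.4 CPM in ethanol, against 24.5, 21.7 and 22.3 CPM in controls (log2 change -0.005 ± 0.10, adjusted p = 0.967). Its means were 15.2 CPM in heat, 15.1 CPM in MMS and 13.3 CPM in caffeine. Ethanol was higher than each, by log2 changes of 0.58 (heat, adjusted p = 9.29e-05), 0.59 (MMS, 0.000125) and 0.77 (caffeine, 9.84e-06).

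MEI4 (chromosome 5, 384124 to 385340) encodes in baker's yeast a protein needed for the DNA breaks that start meiotic recombination. It had 3.63, 3.05 and 2.82 CPM in ethanol, against 3.44, 4.72 and 4 CPM in controls, with overlapping groups. The log2 change of -0.36 ± 0.18 was not called here (adjusted p = 0.083), but it was called in 4 of 14 alternative analyses, whose adjusted p ran from 0.0269 to 0.326, among them those without ethanol replicate 1 (-0.46, 0.0451) and without control replicate 1 (-0.48, 0.0422). Heat libraries had 11.9 ± 0.834 CPM (SD, n = 3), and ethanol was lower than heat by a log2 change of -1.91 (adjusted p = 2.08e-07). YGL194C-A (chromosome 6, 1143195 to 1143452) had 3.38, 1.98 and 2.35 CPM in ethanol, against 3.11, 3.8 and 2.7 CPM in controls, with overlapping groups (log2 change -0.36 ± 0.23, adjusted p = 0.177). Without ethanol replicate 1, the highest of that group, it was called lower (-0.59, adjusted p = 0.0282).

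**Figure D3:**
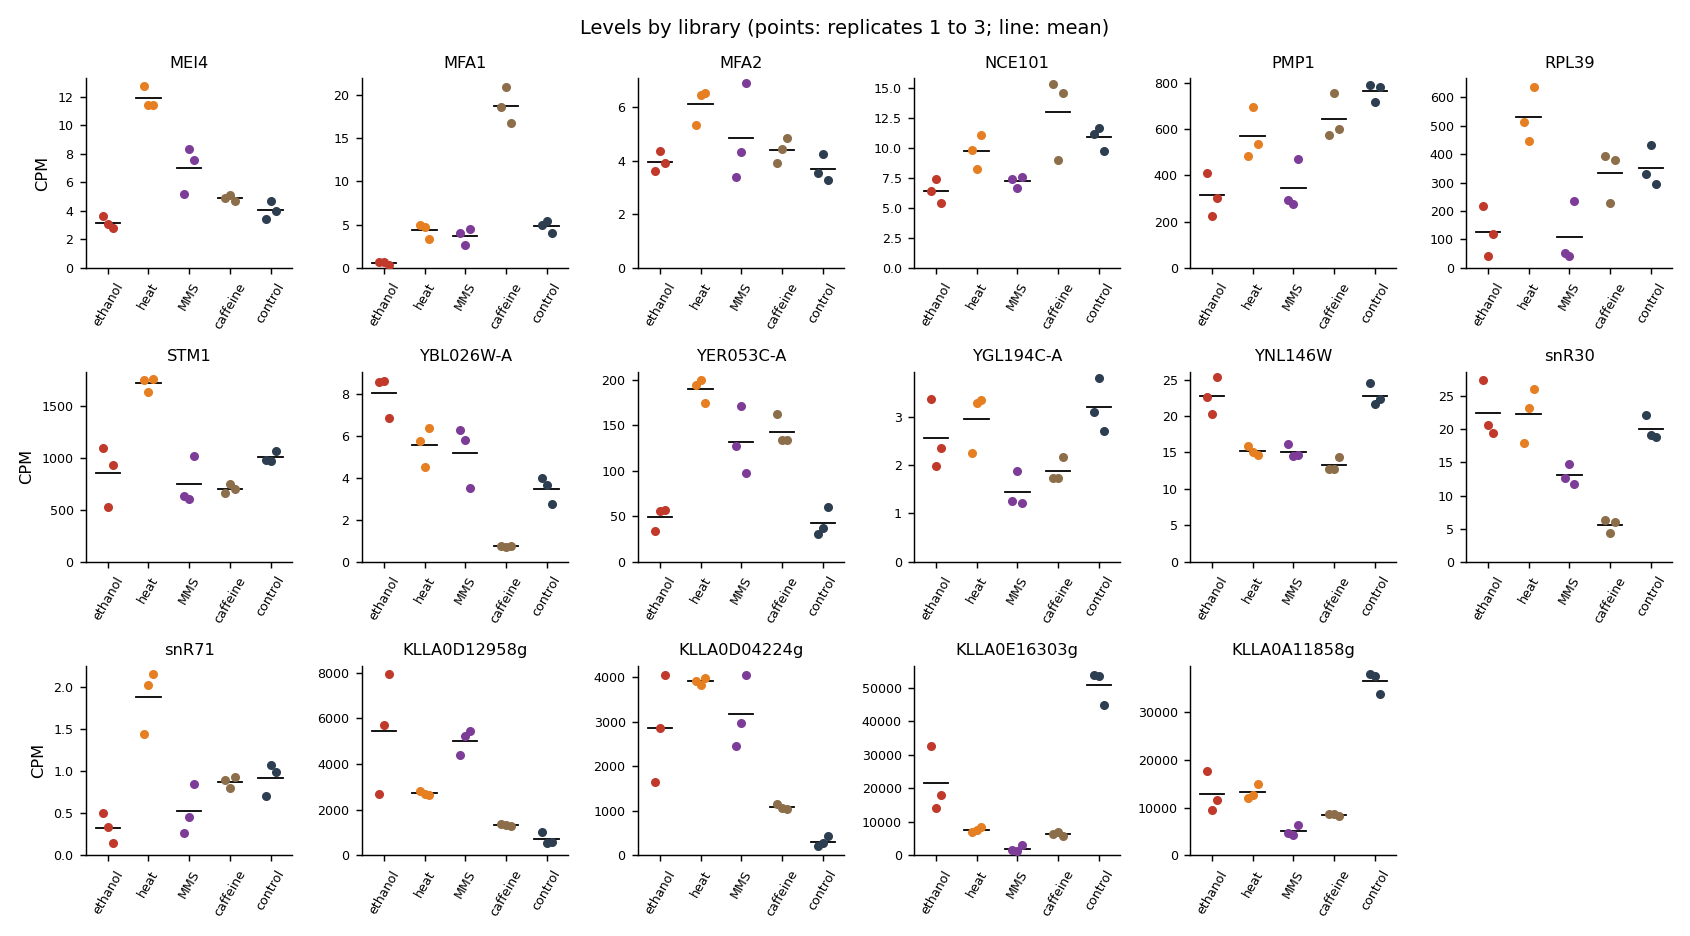
Each panel shows 1 gene, with its level (CPM, linear axis from 0) in the 3 libraries of ethanol, heat, MMS, caffeine and control from left to right, points for replicates 1 to 3 and a line for the mean. MFA1 is lowest and YBL026W-A highest in the ethanol libraries, while YNL146W is level between ethanol and control and lower in the other stresses.

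The 4 unnamed IDs with the largest gain or loss of mean CPM, picked among genes called at least 2-fold with groups that do not overlap, were transcripts of high abundance. These conditions were met by 354 IDs in the higher direction and 455 in the lower, and no function can be given for them. KLLA0D12958g (chromosome 4, 1107587 to 1109728) had 2686, 5699 and 7928 CPM in ethanol, against 1016, 540 and 607 CPM in controls. All ethanol libraries were above all controls, with replicate 1 the lowest of them, and the level was 7.54-fold higher (log2 change 2.91 ± 0.33, adjusted p = 5.73e-06). Its flanking genes, 341 and 435 bases away, changed by 0.70 and 1.03 on the log2 scale. KLLA0D04224g (chromosome 4, 363732 to 365654) had 1656, 2856 and 4055 CPM in ethanol, against 209, 280 and 430 CPM in controls. The groups did not overlap, and the level was 9.32-fold higher (log2 change 3.22 ± 0.33, adjusted p = 2.14e-06).

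Levels of both genes were also above control in the other stresses. KLLA0D12958g averaged 2730 CPM in heat, 5014 CPM in MMS and 1341 CPM in caffeine. It was higher in ethanol than in heat (log2 change 0.99, adjusted p = 0.0103) and caffeine (2.02, 7.28e-05), and its difference from MMS was not called (0.12, 0.761). KLLA0D04224g averaged 3906 CPM in heat, 3165 CPM in MMS and 1088 CPM in caffeine. For that gene ethanol was higher than caffeine (log2 change 1.39, adjusted p = 0.0011), while the differences were not called at -0.45 from heat (0.188) and -0.15 from MMS (0.688).

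The IDs with the largest loss of mean CPM were highly abundant in controls, which follows from picking by CPM lost and not by fold. KLLA0E16303g (chromosome 5, 1457903 to 1459594) had 32660, 14020 and 17920 CPM in ethanol, against 53920, 53650 and 44900 CPM in controls. The groups did not overlap, and the level was 2.36-fold lower (log2 change -1.24 ± 0.34, adjusted p = 0.00594). KLLA0A11858g (chromosome 1, 1024297 to 1025292) had 17550, 9549 and 11560 CPM in ethanol, against 37910, 37490 and 33820 CPM in controls, and was 2.82-fold lower (log2 change -1.50 ± 0.24, adjusted p = 8.5e-05). Both also had lower means in the other stresses, at 7664 CPM in heat, 2029 CPM in MMS and 6427 CPM in caffeine for KLLA0E16303g. KLLA0E16303g was higher in ethanol than in each of these, by log2 changes of 1.49 (heat, adjusted p = 0.00129), 3.41 (MMS, 2.73e-06) and 1.74 (caffeine, 0.000474). KLLA0A11858g averaged 13190 CPM in heat, 5160 CPM in MMS and 8546 CPM in caffeine. Its difference between ethanol and heat was not called (log2 change -0.03, adjusted p = 0.897). KLLA0A11858g was higher in ethanol than in MMS (1.32, 0.000216) and caffeine (0.59, 0.0332).

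The transcript pool was spread over more genes in ethanol. The 100 most abundant genes of each library held 38.3%, 31.5% and 34.2% of its gene counts in ethanol, against 47.9%, 47.3% and 45.6% in controls. No ethanol library reached the lowest control. The means were 34.7% ± 3.41 in ethanol and 46.9% ± 1.22 in controls (SD, n = 3 each), a difference of -12.3 percentage points. The 2-sided exact permutation p was 0.1, the smallest that 3 libraries against 3 allow. To reach 50% of gene counts took 232, 383 and 311 genes in ethanol, against 119, 123 and 139 genes in controls. The same 100-gene share was 34.3% to 35.9% in heat, 25.7% to 28.6% in MMS and 30.9% to 32.2% in caffeine. The part of the counting program in the ethanol share was not tested.

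**Figure D4:**
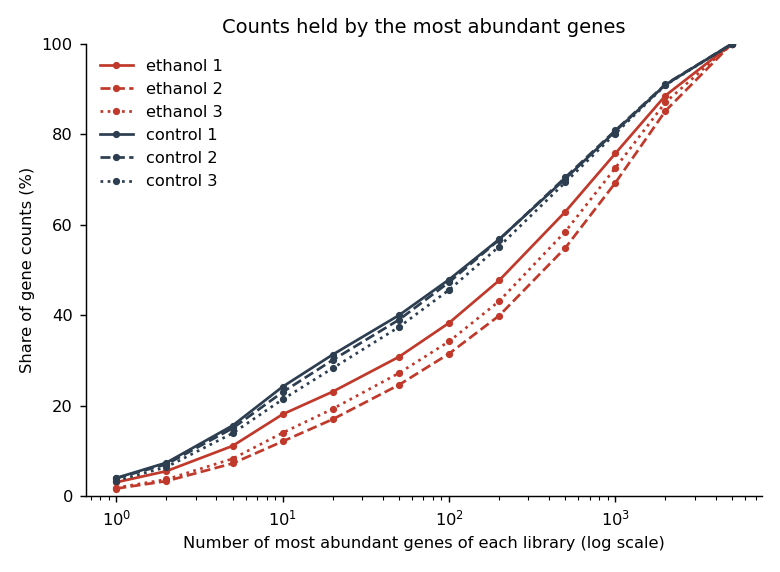
The vertical axis gives the share of gene counts (percent) held by the most abundant genes of each library, and the horizontal axis the number of those genes (log scale), with 1 line per library. The 3 ethanol lines run below the 3 control lines up to 2000 genes, and at 100 genes they lie at 31.5% to 38.3% in ethanol, against 45.6% to 47.9% in controls.

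The lists of the most abundant genes overlapped in part. Ranked by group mean, the 100 highest of ethanol and the 100 highest of controls shared 62 genes. Of the 100 highest in ethanol, 22 were called higher and 43 lower than in controls (median log2 change -0.45). Over all genes tested, 33.4% were called higher and 32.2% lower. Of the 100 highest in controls, 1 was called higher and 75 lower (median -1.10). The second list was picked for being high in controls, so some of its fall comes from the choice.

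Change varied with expression level. Over all genes tested, 33.4% were called higher and 32.2% lower. With genes classed by their mean over all 15 libraries, the 139 above 1000 CPM had a median log2 change of -0.89. Of them, 10 (7.19%) were called higher and 74 (53.2%) lower. The 1892 genes between 100 and 1000 CPM had a median of -0.13, with 516 (27.3%) higher and 714 (37.7%) lower. The 2651 genes between 10 and 100 CPM had a median of 0.12, with 1066 (40.2%) higher and 713 (26.9%) lower. The 301 below 10 CPM had a median of -0.16, with 71 (23.6%) higher and 104 (34.6%) lower. The most abundant class had medians of -0.06 in heat, -1.02 in MMS and -0.45 in caffeine against the same controls. All 4 comparisons share those controls. Classed by the control level alone, the 191 genes above 1000 CPM included 5 (2.62%) called higher and 122 (63.9%) called lower. The 377 genes below 10 CPM in controls included 140 (37.1%) called higher and 96 (25.5%) called lower. These classes were picked by the same control values that enter the change, so some of this contrast comes from the choice.

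Longer genes were more often higher in ethanol. Genes were split by exon length into 4 groups of like size. The shortest group, of up to 753 bases, held 1252 genes. Of these, 303 (24.2%) were higher and 460 (36.7%) lower, against 33.4% and 32.2% of all genes tested, with a median log2 change of -0.16. In the longest group, from 1926 bases, 512 of 1246 (41.1%) were higher and 332 (26.6%) lower, with a median of 0.11. The order held among genes of 10 to 100 CPM, where the median was -0.03 in the shortest group (736 genes) and 0.27 in the longest (521 genes). MMS libraries had medians of -0.20 in the shortest and 0.12 in the longest group. Caffeine libraries had -0.04 and 0.07 in the same groups. Heat libraries had medians near 0 in the shortest and -0.08 in the longest. The part of the counting program in the order by length was not tested.

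Genes with more space around them were more often lower. Of the 1304 genes more than 400 bases from the nearest gene, 331 (25.4%) were higher and 534 (41%) lower, with a median of -0.23. Over all genes tested the shares were 33.4% and 32.2%. Of the 873 genes less than 100 bases away, 349 (40%) were higher and 231 (26.5%) lower, with a median of 0.11. Widely spaced genes also had higher control levels, with a median of 122 CPM against 52.7 CPM in closely spaced ones. Among genes of 10 to 100 CPM the medians were -0.01 in widely spaced and 0.15 in closely spaced genes. The part of the expression level in the difference by spacing was not tested beyond this class. MMS medians were -0.22 in widely spaced and 0.09 in closely spaced genes. The same medians were -0.10 and 0.002 in heat, and 0.03 and 0.01 in caffeine.

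**Figure D5:**
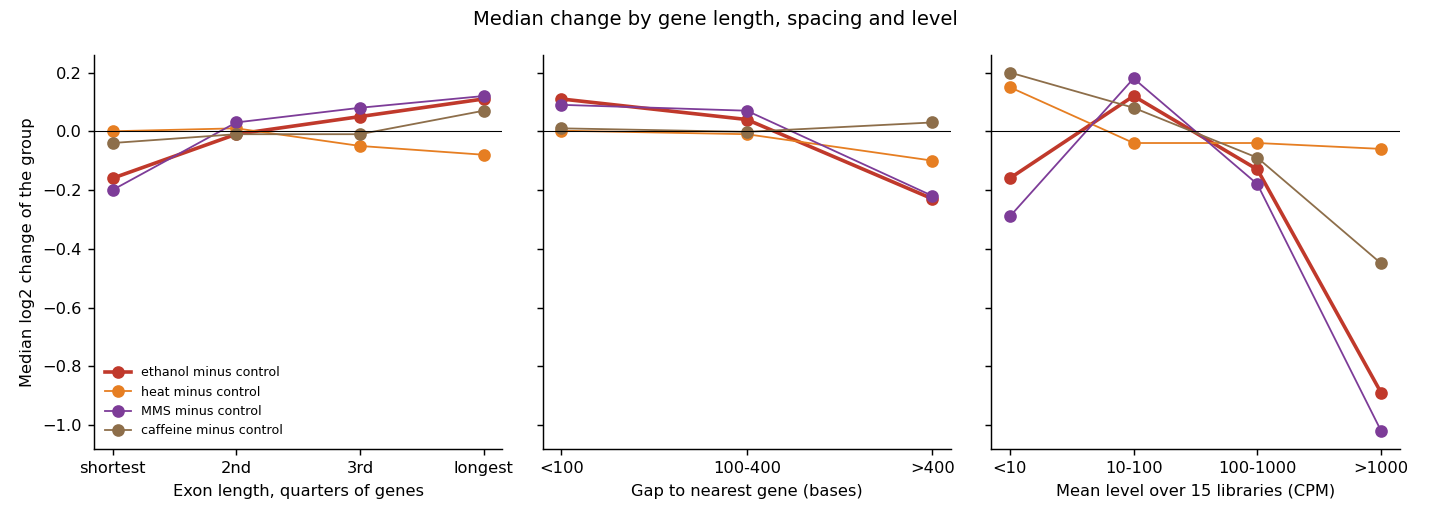
The vertical axis gives the median log2 change against control in groups of genes by exon length (left), distance to the nearest gene (middle) and mean level (right), for ethanol, heat, MMS and caffeine. The ethanol line goes from -0.16 to 0.11 with length, ends at -0.23 for widely spaced genes and drops to -0.89 above 1000 CPM, and in each panel it runs near the MMS line.

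Smaller groups were formed by position, gene structure and type of ID. Sequence ends were taken as the first base of a chromosome and the end of its last listed gene, since sequence lengths were not at hand. Of 70 tested genes within 20 kb of such an end, 18 (25.7%) were higher and 37 (52.9%) lower. Over all genes tested the shares were 33.4% and 32.2%. The median log2 change of the 70 genes was -0.47, and their medians in heat, MMS and caffeine were -0.69, -0.44 and -0.53. The 174 genes with more than 1 exon feature had 47 called higher (27%) and 46 called lower (26.4%), a smaller share than over all genes in both directions, and a median of -0.22, with 0.25 in heat, -0.62 in MMS and -0.21 in caffeine. By chromosome the medians ran from -0.07 to 0.09. Of 27 tested IDs named only for an ancestral locus, 5 (18.5%) were higher and 8 (29.6%) lower, with a median log2 change of 0.09, and the share of lower genes was near that of all genes.

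Reads on transfer RNA genes, which poly(A) capture should largely remove, were scarcer in ethanol. Over all 160 tRNA genes, with no filter, the ethanol libraries had 515, 982 and 311 counts, against 1209, 1205 and 577 counts in controls. This was 14.3, 8.94 and 6.64 CPM in ethanol, against 33, 33.9 and 30 CPM in controls, and the groups did not overlap. By amino acid, and named after the values were seen, the largest difference in level was in the 8 proline tRNA genes, with 0.249, 0.291 and 0.32 CPM in ethanol, against 5.49, 4.47 and 3.95 CPM in controls. Of 20 amino acids, the ethanol and control libraries overlapped in 6, which were aspartate, glutamate, leucine, methionine, tryptophan and tyrosine. The 13 leucine tRNA genes, for example, had 2.71, 1.78 and 0.811 CPM in ethanol, against 2.62, 2.87 and 2.65 CPM in controls. The sums were not tested. Only 44 of the 160 genes passed the filter on low counts, which looks at all 5 conditions. A tRNA gene could pass through the conditions where it is high, so calls among the 44 lend no support to a fall in ethanol. Of the 44, 1 (2.27%) was called higher and 26 (59.1%) lower in ethanol, against 33.4% and 32.2% of all genes tested. Their median log2 change was -2.20, and the medians against the same controls were 0.57 in heat, -2.45 in MMS and 0.92 in caffeine. How each counting program treats reads that fit several tRNA copies is not given, and its part in the difference was not tested.

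Most ethanol changes did not set ethanol apart from every other library. In 1021 genes (20.5%) all 3 ethanol libraries lay above or below all 12 remaining libraries, 544 above and 477 below. The same count was 1746 (35%) for heat, 1192 (23.9%) for caffeine, 678 (13.6%) for MMS and 884 (17.7%) for control. These counts do not measure an effect of the counting program. Among the genes called higher in ethanol, 514 of 1663 (30.9%) lay above all 12, and among those called lower, 463 of 1605 (28.8%) lay below all 12. Among genes changed at least 2-fold, the counts were 147 of 384 (38.3%) above and 217 of 526 (41.3%) below. These separations compare levels with the other stresses as well as with the controls, and no test was made of them.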

How the data were processed

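Poly(A)-captured RNA of K. lactis was sequenced in 15 libraries, and what the authors deposited are raw counts for each feature, not normalized. Ethanol counts were made with featureCounts 1.6.3, per the file headers, whose command gives no option for read pairs, strand or reads on several features. The other counts have the layout of HTSeq, which stands with TopHat, both unversioned, in the submitters' processing notes. Strand use and the genome build are not given in the sources used here, so antisense genes are uncertain, and coordinates are those of the featureCounts table. Groups came from sample titles. Parts were summed to genes, and genes whose exon features overlap another gene's were left out. Lines for unassigned reads stayed out of totals. Reads on no feature and ambiguous reads averaged 5.49% and 2.1% in controls, as shares of gene counts plus these reads.

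R 4.3.3 and edgeR 4.0.16 were used. The quasi-likelihood test was run on all 15 libraries with a term for group alone, after filterByExpr and TMM scaling. All groups shared 1 spread per gene in this fit. Its common coefficient of variation was 0.145, below the 0.199 found within ethanol. Standard errors and adjusted p of the ethanol contrasts thus rest in part on tighter groups, such as heat and caffeine. Tests were 2-sided, with Benjamini-Hochberg adjustment over 4983 genes, and standard errors were derived from the quasi-likelihood F statistic. Contrasts of ethanol with heat, MMS and caffeine came from the same fit. DESeq2 1.42.0 was an alternative. The scripts were tested on simulated data with 200 changed genes, far fewer than were called here. There edgeR recovered 58.2% of 1.5-fold, 89.6% of 2-fold and 100% of 4-fold changes, and 7.3% of its calls were false. DESeq2 recovered 71.6%, 91% and 100%, and 14.6% of its calls were false. Distances used log2(CPM + 0.5) over 4682 genes. The rule for named genes took each tested ID that carries a gene name and, of the others, the 2 IDs with the largest gain and the 2 with the largest loss of mean CPM among genes called at least 2-fold, with a mean of 10 CPM or more in 1 group and no overlap between groups. IDs ending in r were left out, since several are near-equal copies. The members, gene groups and lists were chosen with earlier results of these data known. Of 616 symbols in 15 pathway lists, the IDs carry 2, PMP1 and RPL39, so the lists were not used.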

Additional observations from a re-analysis of the deposited data

How the results depend on the processing

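Alternatives were RLE scaling, DESeq2, no filter on low counts, the 6 ethanol and control libraries only, overlapping genes kept, ethanol counts halved, genes of 1 exon feature only, the replicate number as a block, each ethanol or control library left out, and, added after the data were seen, the MMS libraries left out. Over these 15, counts ran from 1371 to 1714 genes higher, 1369 to 1812 lower, 303 to 439 at least 2-fold higher and 498 to 637 at least 2-fold lower. With the 6 ethanol and control libraries only, 1473 genes were higher and 1369 lower, 386 and 498 of them at least 2-fold. In that fit the adjusted p rose to 0.000158 for MFA1 and to 0.0014 for KLLA0D12958g. With 1 library left out, 1371 to 1714 were higher and 1440 to 1701 lower. The difference in the 100-gene share ran from -14.1 to -10.7 points over 11 alternatives. The deviations of libraries of the same number from their group means had correlations of -0.228, -0.21 and 0.176. With 3 libraries per group, these values cannot decide whether the numbers pair the samples. With the replicate block, 1636 genes were higher and 1615 lower, 382 and 529 of them at least 2-fold, and the share differed by -12.3 points (exact sign-flip p = 0.25). Of the values of all genes described singly under these alternatives, 241 kept their call and 10 changed it. These totals include the unnamed IDs KLLA0D12958g, KLLA0D04224g, KLLA0E16303g and KLLA0A11858g. Those were picked for being called at least 2-fold without overlap, and each kept its call in all 15, which raises the share kept. All changes were in genes that carry a name: RPL39 lost its call in 5, MEI4 gained it in 4 and YGL194C-A in 1. The directions of the called named genes held in every alternative that gave them a value. Genes of few counts, such as snR71 and the tRNA genes, are limited by depth.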
